A study of Mus musculus with 29 samples.

Results

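A set of 8 genes of the vascular basement membrane were followed through single-cell libraries of mouse brain after stroke. They were picked by name, with earlier results of these data known: Col4a1, Col4a2, Lama4, Lamb1, Lamc1, Nid1, Hspg2 and Sparc, which make 8 of the 27827 genes in the tables. All 8 are listed in every brain table. Their level was measured as CPM, the gene's counts divided by all counts of the cells of 1 annotated type in 1 library and scaled to 1e+06.

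The basement membrane is the sheet of extracellular matrix on which endothelial cells sit and in which pericytes are embedded. Its collagen IV network is built from α1 and α2 chains, the products of Col4a1 and Col4a2. A second network is built from laminins, trimers of an α, a β and a γ chain, here Lama4, Lamb1 and Lamc1. Nidogen 1 (Nid1) and perlecan (Hspg2) bridge the networks, and SPARC (Sparc) is a secreted protein that binds collagen. In the brain this sheet is part of the blood-brain barrier.

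Col4a1 and Col4a2 lie head to head on chromosome 8 and are transcribed away from each other. Col4a1 runs from 11312826 down to 11198423 on the minus strand and Col4a2 from 11312805 up to 11449287 on the plus strand (build GRCm38, GENCODE vM21). Their annotated first bases overlap by 22 bases, and this stretch is shown because both genes of the pair start in it. Nid1 lies on chromosome 13 from 13437551 to 13512269 on the plus strand. The 199 bases before its annotated gene start are shown because Nid1 was called higher beside the collagen pair at day 2 after stroke. Capitals mark GGGCGG and CCAAT on either strand.
Col4a1 and Col4a2 starts, chr8:11312805-11312826, plus strand: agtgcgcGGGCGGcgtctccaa
Nid1 upstream, chr13:13437352-13437550, plus strand: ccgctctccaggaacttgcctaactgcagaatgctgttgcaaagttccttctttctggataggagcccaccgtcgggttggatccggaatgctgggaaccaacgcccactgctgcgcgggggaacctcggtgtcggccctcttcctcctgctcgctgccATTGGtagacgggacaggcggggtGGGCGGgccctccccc

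RefSeq promoter windows (build GRCm38.p6, 250 bases before to 50 after the start) were matched by symbol for 6 of the 8 genes, all but Lama4 and Lamc1. GGGCGG, read on both strands, occurred in the windows of Col4a1, Col4a2, Nid1, Lamb1 and Hspg2, with 1, 3, 1, 2 and 5 matches, and 35.7% of all 32851 windows hold it. The windows of Col4a1 and Col4a2 overlap and both hold the shared start stretch shown above. The 1 GGGCGG match of Col4a1 is therefore also 1 of the 3 of Col4a2. CCAAT occurred 1 time each in Col4a1, Col4a2, Nid1 and Lamb1, and 37.4% of all windows hold it. CCTCCC occurred in the same 5 windows as GGGCGG, with 2 to 4 matches each, and 42.4% of all windows hold it. None of the 6 windows held TATAAA, which 13.6% of all windows hold. None held the AP-1 letters TGANTCA, present in 7.81% of windows. None held the core letters ACGTG, present in 19.6% of windows. The Sparc window held no match to any of these motifs. These matches describe letters in a window and no binding was measured.

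Gene expression was measured by Drop-seq in C57BL/6J mice 2 or 14 days after transient occlusion of the middle cerebral artery, or 2 days after sham surgery. Brain cells were sorted as CD45 high, microglia, and CD45 negative, Ly6c high endothelial cells, and each library pooled 4 to 5 hemispheres. Young mice, aged 8 to 10 weeks and male, gave 4 sham, 4 day 2 stroke and 4 day 14 stroke libraries. Aged mice of 17 to 20 months gave 2 sham libraries (1 male, 1 female), 3 day 2 stroke libraries (1 male, 2 female) and 1 day 14 stroke library (female). No group paired day 14 stroke with a sham of the same day, so the day 2 sham libraries served both times. Each replicate is 1 pool, so p-values measure the spread between pools and not between single mice. Fewer transcripts per cell and a changed mix of cells within a type cannot be told apart in these sums.

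The 18 brain libraries held 55268 annotated cells, of which 7627 were endothelial (annotation code EC), 176 to 1171 per library. Endothelial sums held 58613 to 730352 counts per library. Endothelial markers summed to 12938 CPM or more in the EC of every library. Fibroblast markers summed to 0 to 12.1 CPM in young EC. Libraries differed in the median mitochondrial share of EC counts: young sham replicate 1 and replicates 1 and 2 of each young stroke group were under 2%, and all others were above 5%. At most 3 cell barcodes were shared by any of the 153 pairs of brain libraries. The library labelled young day 2 replicate 3 stood apart in microglia (code Mg): it held 58 such cells, 56 of them of subtype Mg4, with 3.25 CPM of P2ry12 and 3.77 CPM of Cx3cr1, markers that reached 992 and 1244 CPM or more in the other 3 day 2 libraries. Of the macrophage markers, Lyz2 was at 3443 CPM in these cells, on 90.6 counts, against 520 to 968 CPM in the other 3 day 2 libraries. Ms4a7, Ccr2, F13a1 and Pf4 were also higher than in those 3, on 2.41 counts or fewer each, and Mrc1 was not. What these cells are was not tested. Microglial results are given with and without this library.

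Among the cell types in these sorted libraries, most of the genes were read mainly in vessel cells, and Sparc was also high in microglia. Brain cells outside the sort were not measured. Pooled over all brain libraries, Col4a1 stood at 397 CPM in EC (95% Poisson interval 380 to 415), at 249 CPM in mural cells (code MC, 168 to 354) and at 0.0377 CPM in microglia. Col4a2 followed the same order with 364, 202 and 0.14 CPM. The interval covers counting error only, here and below. For both collagen genes these pooled intervals of EC and MC did not overlap, but the groups enter EC and MC in different shares and the order of the point values was not the same in each group. At young day 14 pooled mural Col4a1 was 466 CPM on 11.83 counts. Its interval of 239 to 817 CPM overlaps the 161 to 314 CPM of the 4 EC libraries, so no order is read there. In cells coded MdC Col4a1 was at 2.02 CPM.

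Sparc pooled over all libraries stood at 3669 CPM in EC (3616 to 3723), 2964 CPM in microglia (2942 to 2988) and 1872 CPM in mural cells (1638 to 2130). The pooled order of EC and microglia did not hold within libraries. Microglia were the higher in every young sham library (3328 to 3758 CPM against 1700 to 2523 CPM in EC), every young day 14 library (3195 to 3539 against 2241 to 2942 CPM) and both aged sham libraries (3437 and 3724 against 957 and 1278 CPM). EC were the higher in every day 2 library of both ages. Sparc stood at 305 CPM in epithelial cells (code Epi), 171 CPM in cells coded OD and 135 CPM in brain cells coded Bc (94.0 to 188). Of the 34.9 counts in Bc, 18.3 came from the male aged sham library and 10.5 from young day 14 replicate 1. It stood at 44.5 CPM in cells coded BAM and at 36.6 CPM or less in the other types. Lama4 was at 94.1 CPM in EC and 138 CPM in MC, with overlapping intervals. Lamc1, the shared γ chain, was at 29.8 CPM in EC and higher in MC at 125 CPM (70.5 to 205). Lamb1, a β chain, was near the floor in EC at 4.58 CPM (2.9 to 6.88) and at 112 CPM in epithelial cells (47.5 to 223) on 7.73 counts, of which 4.92 came from young sham replicate 1. In MC it was at 45.6 CPM (16 to 102), but 3.88 of these 5.61 counts came from the 14 MC of young day 14 replicate 1, so no order of MC and EC is read. Nid1 was at 57.5 CPM in EC and 65.7 CPM in MC, and Hspg2 at 37.1 CPM in EC and 22.7 CPM in MC on 2.79 counts.

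**Figure D1:**
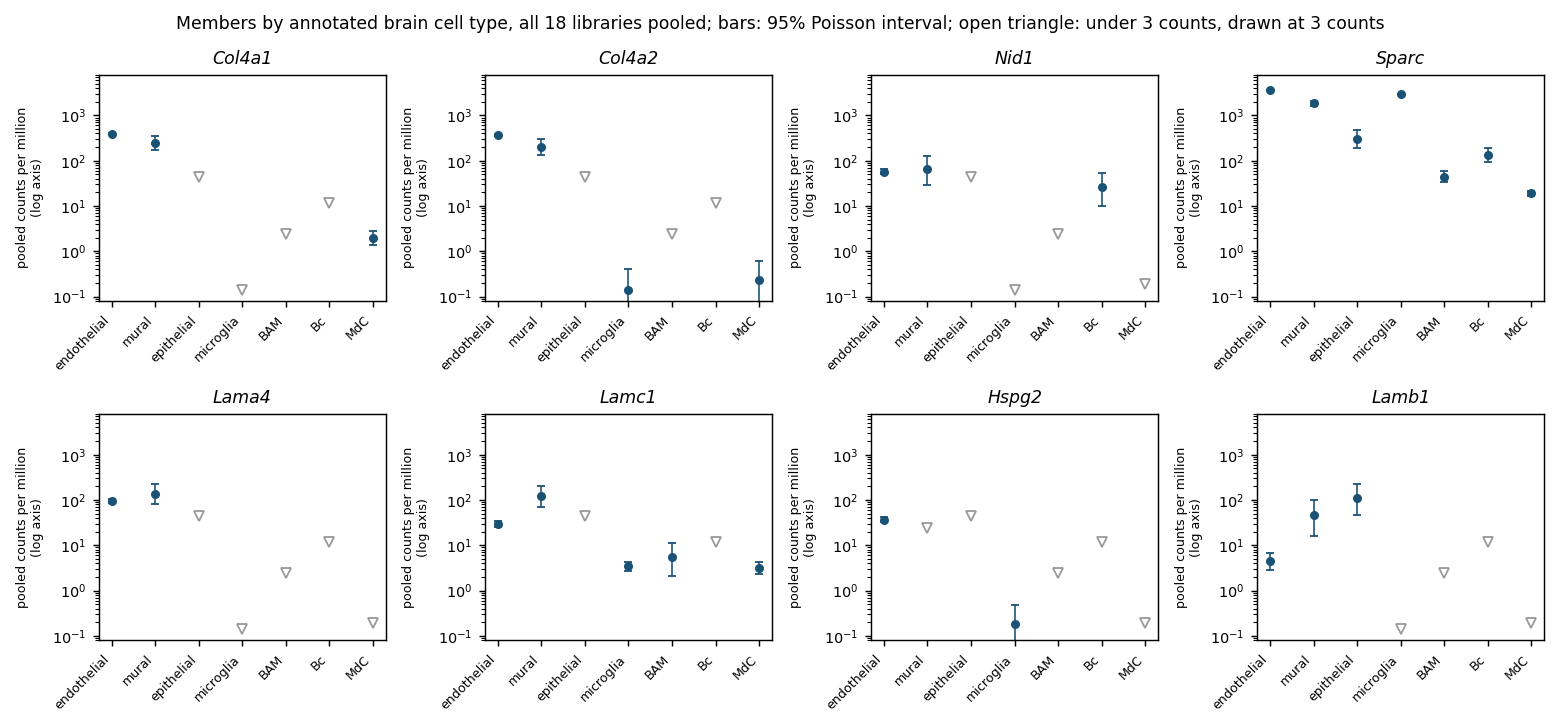
Pooled CPM (log axis) of each member by annotated brain cell type, with 95% Poisson intervals. Open triangles mark types with under 3 counts, drawn at the level of 3 counts. Col4a1 is at 397 in endothelial and 249 in mural cells, and Sparc is at 3669 in endothelial cells and 2964 in microglia, an order of pooled values that is turned around in the sham and young day 14 libraries taken singly.

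The collagen IV genes were higher in endothelial cells of young mice 2 days after stroke. Col4a1 stood at 281, 209, 159.8 and 153 CPM in sham replicates 1 to 4 and at 886, 772, 500.1 and 212 CPM in day 2 replicates 1 to 4. Day 2 replicates 1 to 3 lay above all sham libraries, and day 2 replicate 4 lay below sham replicate 1. The change on the log2 scale was 1.61 ± 0.36 (SE), with an adjusted p of 0.0106 in edgeR's quasi-likelihood test. Col4a2 stood at 187, 179.9, 134 and 183 CPM in sham and at 984, 535, 384 and 186 CPM at day 2. Here too replicates 1 to 3 lay above all sham libraries, and replicate 4, at 186 CPM, fell within the sham range. Its log2 change was 1.67 ± 0.39 with an adjusted p of 0.0125 in the same edgeR test.

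Sparc, the collagen-binding secreted protein, was the member whose libraries separated fully. It stood at 2523, 2137, 1700.0 and 2164 CPM in sham and at 6830.4, 6652, 5645 and 3733 CPM at day 2. Every day 2 library lay above every sham library, as did those of 8.07% of the 5833 genes tested. The log2 change was 1.51 ± 0.23 with an adjusted p of 0.00133 in edgeR. Nid1, the bridge between the networks, stood at 21.1, 40.5, 34 and 0 CPM in sham and at 124, 83.9, 86.7 and 36.6 CPM at day 2. Its log2 change was 1.72 ± 0.47 with an adjusted p of 0.0244 in edgeR, and day 2 replicate 4 fell within the sham range. Nid1 rested on few reads, 23 counts in all sham EC and 161 counts in all day 2 EC.

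The laminin chains and perlecan did not pass the test at day 2. Lama4, the endothelial α chain, stood at 83.5, 114, 109.7 and 196 CPM in sham and at 139.8, 116, 62.1 and 54.3 CPM at day 2, with a log2 change of -0.29 ± 0.33. Lamc1 stood at 46.6, 14.6, 59.3 and 38.4 CPM in sham and at 40.3, 31.1, 9.35 and 11.8 CPM at day 2, with a log2 change of -0.61 ± 0.54. With 1 library left out these changes ran from -0.53 to -0.044 for Lama4 and from -1.01 to -0.34 for Lamc1. Hspg2 had no count in 2 of 4 sham libraries and 20.0 to 80.4 CPM at day 2, with a log2 change of 0.87 ± 0.76. This ran from 0.50 to 2.00 with 1 library left out, the highest without sham replicate 1, and was 1.43 with the replicate block (adjusted p = 0.0935 in edgeR). Hspg2 also differed by mitochondrial class, which the groups hold in unlike shares. Under 2% it stood at 52.7 CPM in sham and at 62.0 and 80.4 CPM at day 2. Above 5% it stood at 22.1, 0 and 0 CPM in sham and at 21.6 and 20.0 CPM at day 2. The direction of Lama4 differed by class. Under 2% Lama4 stood at 83.5 CPM in sham and at 139.8 and 116 CPM at day 2. Above 5% it stood at 114, 109.7 and 196 CPM in sham and at 62.1 and 54.3 CPM at day 2. Lamc1 at day 2 was at 40.3 and 31.1 CPM under 2% and at 9.35 and 11.8 CPM above 5%. The groups of Lama4, Lamc1 and Hspg2 overlapped, with adjusted p of 0.575, 0.464 and 0.458 in edgeR. Lamb1 was too low to be tested: 1 count in all sham EC against 16 counts in all day 2 EC, a ratio of 6.76 with a counting interval of 1.05 to 283, and the day 2 counts came from replicates 1 and 2 only.

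Of the 7 members tested, 4 rose and none fell, where 6.89% of all 5833 genes rose (13.3% were called in either direction). Their median log2 change was 1.51 beside 0.00476 for all genes tested. The day 2 EC also differed from sham EC in markers of cell type. The 10 endothelial markers summed to 14722 to 18736 CPM at day 2 and 22692 to 29872 CPM in sham, with no overlap, and their part in the members' changes was not tested. The 12 mural markers summed to 76.4 to 257 CPM at day 2 and 120 to 591 CPM in sham, with Pdgfrb and Abcc9 at 0 in EC of both groups, and the fibroblast markers Col1a2 and Col3a1 were at 0 in both, while Dcn was at 0 in sham and at 0 to 11.9 CPM at day 2. Leaving out every EC with a count of a mural or fibroblast marker gave log2 changes of 1.64 for Col4a1, 1.71 for Col4a2, 1.85 for Nid1 and 1.58 for Sparc, all still called. Within the libraries above 5% mitochondrial reads, Col4a1 changed by 1.04 (adjusted p = 0.0462) and Sparc by 1.31 (adjusted p = 0.0043), Col4a2 by 0.82 (adjusted p = 0.0733) and Nid1 by 1.04 (adjusted p = 0.212), and Lama4 fell by 1.12 (adjusted p = 0.0277) in edgeR. With the mitochondrial class as a term in the fit, all 4 kept their call, at 1.34, 1.33, 1.67 and 1.46 in the order Col4a1, Col4a2, Nid1 and Sparc. The 13.3% of all genes called belongs to the main fit only. Over the 14 alternatives other than leaving 1 library out, the genes called ran from 0 to 926. Among cells of 800 counts or more, in libraries that kept at least 20 such EC, only Sparc stayed called, at 1.47 (adjusted p = 0.0397). There Col4a1 was at 1.43 (adjusted p = 0.192), Col4a2 at 1.37 (adjusted p = 0.264) and Nid1 at 1.60 (adjusted p = 0.296) in edgeR, and the genes called numbered 45 in place of 778. Nid1 no longer passed when any of sham replicates 1, 3 and 4 and day 2 replicates 1 and 3 was omitted (adjusted p of 0.0519 to 0.069), nor did Col4a2 when sham replicate 3 was (adjusted p = 0.0556).

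**Figure D2:**
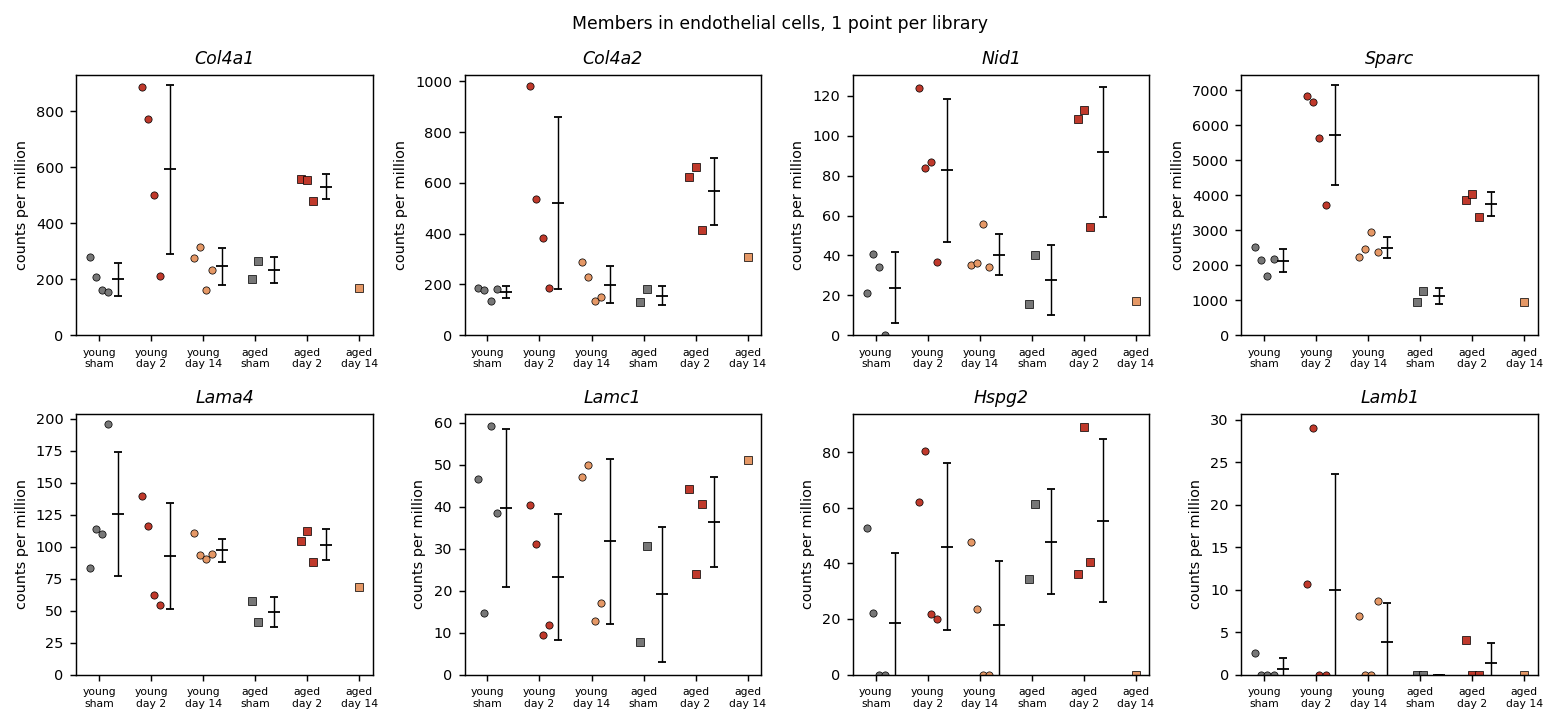
CPM of each member in endothelial cells, 1 point per library (circles young, squares aged), with the mean ± SD of groups of 2 or more beside them, error bars cut at 0. Sparc at day 2 in young mice, 3733 to 6830.4, lies above all sham libraries, and day 14, 2241 to 2942, overlaps the sham range.

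At day 14 no member differed from sham by the test. Col4a1 stood at 277, 314, 161 and 233 CPM in day 14 replicates 1 to 4, Col4a2 at 288, 227, 133 and 149.5 CPM, and Nid1 at 35, 36.2, 55.9 and 34.4 CPM. Sparc stood at 2241, 2458, 2942 and 2364 CPM, and all of these groups overlapped sham. Log2 changes against sham were 0.26 ± 0.37 for Col4a1, 0.23 ± 0.40 for Col4a2, 0.61 ± 0.52 for Nid1 and 0.23 ± 0.23 for Sparc. They were -0.31 ± 0.34 for Lama4, -0.12 ± 0.55 for Lamc1 and -0.14 ± 0.85 for Hspg2, and the last ran from -1.49 to 0.93 with 1 library left out. None of the 7 members tested was called, and none of the 5833 genes tested was (0%); edgeR gave 356 genes an unadjusted p under 0.05, and 10 were called by DESeq2. This comparison shares its sham libraries with the one at day 2.

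Between day 2 and day 14 the collagen genes and Sparc fell. Log2 changes were -1.34 ± 0.35 for Col4a1 (adjusted p = 0.0235), -1.44 ± 0.38 for Col4a2 (adjusted p = 0.0233) and -1.28 ± 0.23 for Sparc (adjusted p = 0.00292) in edgeR. Nid1 had a log2 change of -1.11 ± 0.42 and did not pass (adjusted p = 0.099). With the replicate number as a block it passed, at -1.21 (adjusted p = 0.044), as it did without day 2 replicate 4, at -1.40 (adjusted p = 0.0455) in edgeR. So 3 of 7 members were called, all lower, beside 6.14% of all genes lower and 11.2% called in either direction. Only for Sparc did no day 14 library reach a day 2 library, as in 8.13% of genes. Lama4, at 90.0 to 111 CPM on day 14, changed by -0.02 ± 0.32. In the libraries above 5% mitochondrial reads none of the 3 was called, with Sparc at -0.95 (adjusted p = 0.0695), Col4a1 at -1.002 (adjusted p = 0.155) and Col4a2 at -1.14 (adjusted p = 0.0902). Col4a1 no longer passed when any of day 2 replicates 1 and 2 and day 14 replicates 1, 3 and 4 was omitted, with changes of -1.65 to -1.13 over the libraries left out and adjusted p up to 0.0732. For Col4a2 the libraries that decided the call in this way were day 2 replicate 1 and day 14 replicates 3 and 4, with changes of -1.75 to -0.98 and adjusted p up to 0.0792.

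**Figure D3:**
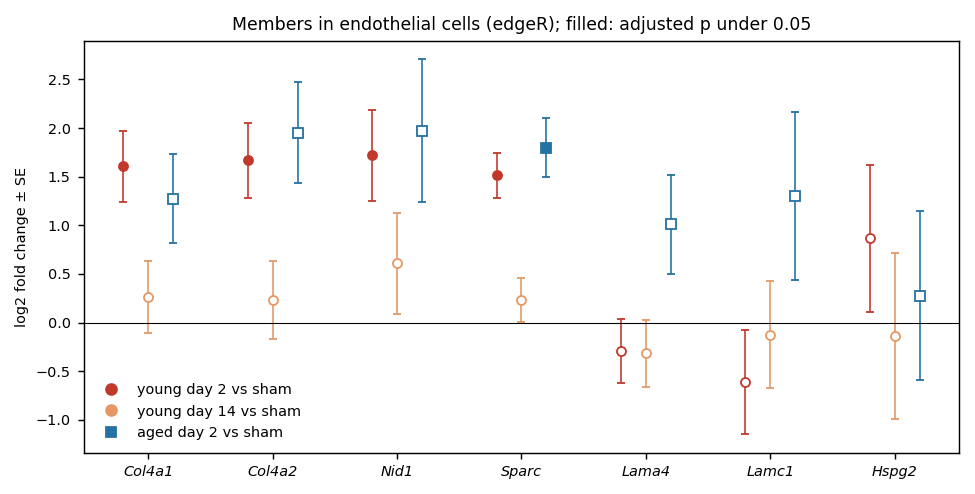
Log2 fold change ± SE of 7 members in endothelial cells (edgeR), for young day 2 against sham, young day 14 against sham and aged day 2 against sham. Filled symbols have an adjusted p under 0.05: Col4a1, Col4a2, Nid1 and Sparc in young mice at day 2 and Sparc in aged mice at day 2.

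In aged mice Sparc was again higher at day 2. It stood at 957 CPM (male) and 1278 CPM (female) in sham and at 3851 CPM (male), 4036 and 3364 CPM (female) at day 2. The log2 change was 1.80 ± 0.30 with an adjusted p of 0.0129 in edgeR. Sparc was the 1 member called of 7 tested, where 0.606% of the 6604 genes tested were called and 0.424% were called higher. Col4a1 stood at 199.6 and 264 CPM in sham and at 558, 556 and 479.8 CPM at day 2. Col4a2 stood at 129.7 and 183 CPM against 624, 661 and 413 CPM, and Nid1 at 15.5 and 40.3 CPM against 108, 113 and 54.2 CPM. Lama4 stood at 57.2 and 40.7 CPM against 104, 112 and 88.4 CPM. Lamc1, at 7.76 and 30.5 CPM against 44.3, 24.1 and 40.6 CPM, and Hspg2, at 34.5 and 61.1 CPM against 36.2, 89 and 40.6 CPM, overlapped. In Sparc, Col4a1, Col4a2, Nid1 and Lama4, 5 of 7 members tested, every aged day 2 library lay above every aged sham library, as in 14.3% of the genes tested. In the male and female aged sham libraries Nid1 rested on 4 and 3.96 counts and Lama4 on 14.8 and 3.99 counts. Endothelial markers summed to 12938 to 17332 CPM in aged day 2 EC and 21044 to 21728 CPM in aged sham EC, and their part in these levels was not tested. Apart from Sparc none passed: log2 changes were 1.27 ± 0.46 for Col4a1 (adjusted p = 0.257), 1.95 ± 0.52 for Col4a2 (adjusted p = 0.109), 1.97 ± 0.73 for Nid1 (adjusted p = 0.268) and 1.01 ± 0.51 for Lama4 (adjusted p = 0.452) in edgeR. The values were 1.30 ± 0.86 for Lamc1 (adjusted p = 0.622) and 0.28 ± 0.87 for Hspg2 (adjusted p = 0.952) in edgeR. With 1 library left out the change ran from 0.36 to 2.23 for Lamc1 and from 1.25 to 2.56 for Nid1. The call of Col4a2 depended on the fit: its change was 1.90 to 2.14 over the settings that kept all aged libraries, and it was called in 5 of them, among them DESeq2 (adjusted p = 0.011) and the fit of only the compared groups (adjusted p = 0.0246). Without either sham library the Sparc call was lost, at 1.62 without the male (adjusted p = 0.229) and 1.98 without the female (adjusted p = 0.119) in edgeR. These fits leave 1 aged sham library, assumed to vary like the other groups, and their changes lie near the 1.80 of the full fit. With the replicate label as a block it was lost too, at 1.89 (adjusted p = 0.0626).

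The lone aged day 14 library held Sparc at 948 CPM, Col4a1 at 170.0 CPM, Col4a2 at 307 CPM and Nid1 at 17 CPM, and has no replicate. The stroke effect was compared between ages by an interaction term. None of the 7 members and none of the 6604 genes was called (0%), with 356 genes at an unadjusted p under 0.05 in edgeR and 0 called by DESeq2. The differences, aged minus young, were -0.34 ± 0.56 for Col4a1, 0.27 ± 0.62 for Col4a2, 0.24 ± 0.91 for Nid1 and 0.27 ± 0.36 for Sparc. They were 1.29 ± 0.60 for Lama4, 1.91 ± 1.02 for Lamc1 and -0.65 ± 1.08 for Hspg2, with adjusted p of 0.847, 0.847 and 0.941 in edgeR. With 1 library left out the difference ran from 0.94 to 2.80 for Lamc1 and from -1.73 to -0.24 for Hspg2. Sham levels themselves were compared after the values had been seen. Sparc and Lama4 were lower in both aged sham libraries than in all 4 young sham libraries, as in 8.01% of genes, with log2 differences of -0.90 ± 0.28 and -1.16 ± 0.48. Neither passed (adjusted p = 0.915 for both in edgeR), and no gene did: edgeR gave 319 of 6604 an unadjusted p under 0.05, and 6 were called by DESeq2 and 110 by edgeR without the low-count filter. Age and sex are in part confounded here, since all young mice were male.

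The endothelial annotation divides EC into 9 subtypes, and the members' level, pooled over all groups, differed between them. Subtype EC2 made up 32.7% to 59.2% of EC in young day 2 libraries and 50.5% to 72.1% in aged day 2 libraries, against 0.315% to 5.68% in the sham and day 14 libraries. Pooled over all brain libraries, EC2 cells held 723 CPM of Col4a1, 656 CPM of Col4a2, 102 CPM of Nid1 and 6303 CPM of Sparc. EC1 cells held 273, 259, 48.5 and 2851 CPM, but the groups enter EC1 and EC2 in different shares. Among day 2 libraries with both subtypes, median Col4a1 was 329 CPM in EC1 and 688 CPM in EC2. Median Sparc there was 2551 CPM in EC1 and 5402 CPM in EC2. EC8, a subtype of 105 cells, was also high in Col4a1 at 652 CPM and Col4a2 at 646 CPM, and it held the most Lama4 at 192 CPM. Sparc in EC8 was lower, at 2005 CPM. Per marker, EC2 held a mean of 1393 CPM of the endothelial list and 7.89 CPM of the mural list, against 2437 and 27.1 CPM in EC1. EC8 held 72.3 CPM per astrocyte marker, against 12.5 CPM in EC1, and the part of these markers in its levels was not tested. Subtypes were defined by the authors from these same cells, so these levels are a description.

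Within the 7 day 2 libraries that held both subtypes, EC2 cells were above EC1 cells of their own library in 7 of 7 for Col4a1, Col4a2 and Sparc, and in 6 of 7 for Nid1 and Hspg2. The ratio of EC2 to EC1 ran from 1.24 to 3.77 for Col4a1, 1.28 to 5.11 for Col4a2 and 1.28 to 4.06 for Sparc. Lama4 was higher in EC2 in 2 of 7 libraries and Lamc1 in 4 of 7. Lamb1 was higher in EC2 in 3 of 7, and the rest were ties with no Lamb1 count in EC1 or EC2. The share of all genes that were higher in EC2 was not computed, so these counts describe the members only. Sparc in EC1 at day 2 was 6639, 4688, 5591 and 2551 CPM in the young libraries and 1212 (male), 1635 and 1829 CPM in the aged ones, where EC1 of aged sham held 1149 to 1303 CPM and EC1 of young sham 1914 to 2819 CPM.

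With 1 subtype analysed at a time, no member was called. In EC1 alone the young day 2 change was 1.37 for Col4a1 (adjusted p = 0.112), 1.32 for Col4a2 (adjusted p = 0.161) and 1.08 for Sparc (adjusted p = 0.0798) in edgeR. Sparc changed by 0.75 in EC3, 0.98 in EC4 and 0.63 in EC5. All of these were positive, as was every change of Col4a1 and Col4a2 in the subtypes where they could be tested. EC1 alone gave 13 called genes of all tested, EC4 gave fewer and EC3 and EC5 gave 0, so these fits called few genes of any kind.

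**Figure D4:**
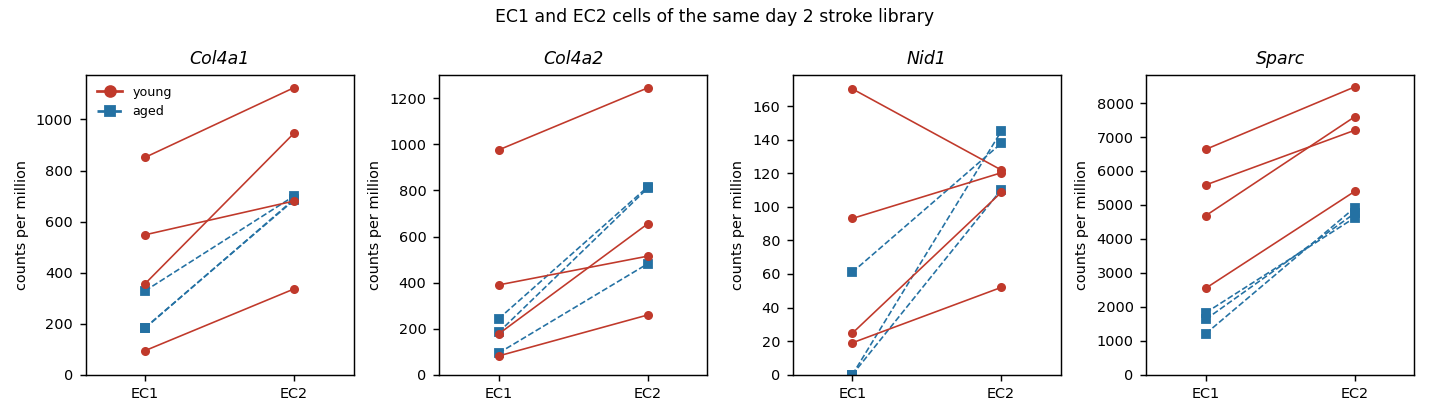
CPM in EC1 and EC2 cells, each line joining the cells of 1 day 2 stroke library (solid young, dashed aged). Lines rise in 7 of 7 libraries for Col4a1, Col4a2 and Sparc and in 6 of 7 for Nid1. The share of all genes that rise in this way was not computed.

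In microglia the CPM of Sparc was lower at day 2, a difference that did not pass the test with all libraries and cells. It stood at 3758, 3328, 3389 and 3389 CPM in sham replicates 1 to 4, at 2219.9, 2642, 0 and 1718 CPM at day 2, and at 3195, 3539, 3358 and 3492 CPM at day 14. Every day 2 library lay below every sham library, as in 24% of the 10145 genes tested in microglia, and every day 14 library lay above every day 2 library, as in 3.79%. Neither difference passed: the log2 change was -0.86 ± 0.66 at day 2 (adjusted p = 0.327) and 1.29 ± 0.66 from day 2 to day 14 (adjusted p = 0.284) in edgeR, where 31.4% and 6.93% of genes were called. In the libraries above 5% mitochondrial they were -1.48 (adjusted p = 0.149) and 1.96 (adjusted p = 0.167), but there replicate 3 is 1 of only 2 day 2 libraries, and its 58 cells hold few microglial marker counts. With all libraries but that one, they were -0.49 (adjusted p = 0.0701) and 0.91 (adjusted p = 0.0157). Among cells holding 800 counts or more, in libraries that kept at least 20 such cells, they were -0.59 (adjusted p = 0.0322) and 0.97 (adjusted p = 0.00737). At day 14 the change against sham was 0.43 ± 0.65 with TMM scaling (adjusted p = 0.688) and -0.021 with library size alone, so its sign depends on the scaling and the CPM of the groups overlap. In this comparison 15.2% of genes were called, 1544 in number, and 791 to 3425 over the alternatives. The median of all genes in microglia shifted with the scaling, from -0.05 with TMM to -0.22 with library size alone at day 2, and from -0.04 to -0.49 at day 14. In aged mice microglial Sparc was 3437 (male) and 3724 CPM (female) in sham, 1321 (male), 1554 and 2806 CPM at day 2 and 3153 CPM at day 14.

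Sparc in microglia differed by subtype. Mg1 cells held 3525.6 to 4172 CPM in 4 young sham libraries and 4206 to 4812 CPM in the 3 young day 2 libraries with 20 such cells. Mg4 cells held 2413 to 2795 CPM in 3 sham libraries and 0 to 1938 CPM in the 4 day 2 libraries, or 1036 to 1938 CPM without day 2 replicate 3. Mg4 made up 33.9% to 40.0% of microglia in young day 2 replicates 1, 2 and 4 and 1.97% or less in young sham. Mg5 was of similar size in these day 2 libraries, with 237, 214 and 459 cells, against 25, 51 and 32 cells in sham replicates 1 to 3. Its Sparc was at 2241, 2482 and 1806 CPM at day 2 and at 4089, 2968 and 2982 CPM in sham. A direct test of the cell types against each other in 1 fit, with the library as a block, gave a difference of 2.56 ± 0.52 on the log2 scale between the EC and the microglial change at day 2 (adjusted p = 0.00259 in edgeR), where 5.69% of the 10172 genes tested were called and 2.33% were called higher. Without day 2 replicate 3 the difference was 2.09 (adjusted p = 2.82e-06). At day 14 the difference was -0.19 ± 0.49 (adjusted p = 0.893), and 0.27 with library size alone, where 7.95% of genes were called. The other members passed no low-count filter in the microglial fit.

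**Figure D5:**
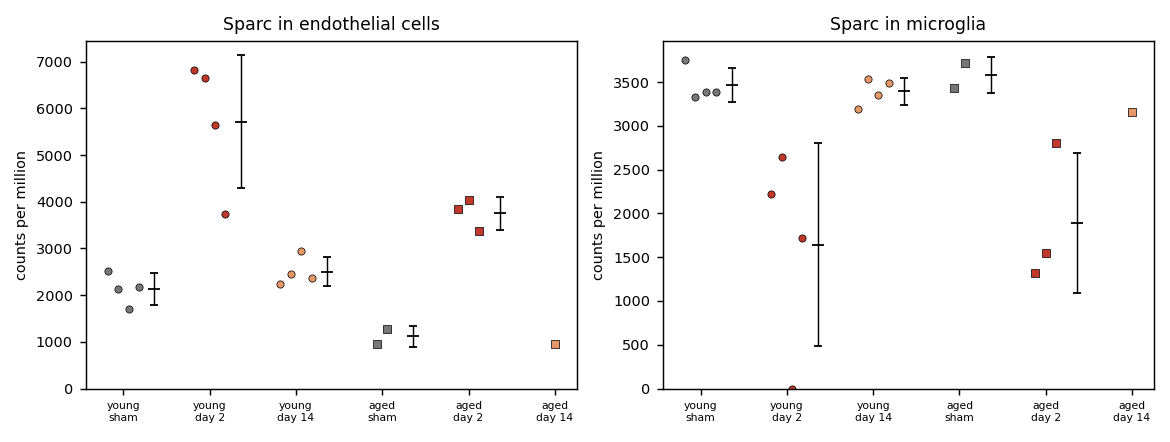
CPM of Sparc in endothelial cells (left) and microglia (right), 1 point per library with the mean ± SD of groups of 2 or more. At day 2 the young endothelial libraries reach 3733 to 6830.4 while the young microglial libraries lie at 1718 to 2642, below the 3328 or more of sham, and at 0 in replicate 3, whose 58 cells hold few microglial marker counts.

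Mural cells were few: 2 young sham libraries and 1 young day 2 library held the 20 cells set as a minimum for the tests, so that no test was run at that minimum. Pooled by group, mural Col4a1 was at 32.0 CPM in young sham (interval 0.779 to 180), 298 CPM at day 2 (127 to 589) and 466 CPM at day 14 (239 to 817), on 0.99, 7.87 and 11.83 counts. Mural Sparc was at 2152 CPM (1666 to 2737), 2241 CPM (1707 to 2889) and 1803 CPM (1319 to 2407), with overlapping intervals. By library, in replicates 1 to 4, mural Col4a1 was at 0, 79.7, 0 and 0 CPM in sham, 1687, 0, 326 and 268 CPM at day 2 and 478, 1208, 361 and 0 CPM at day 14. The groups overlapped, and the values rest on 1 to 32 cells a library. A fit of all 12 young libraries with no minimum of cells, added after seeing the data, kept 49 genes and Sparc as the only member. The log2 change of Sparc was -0.078 ± 0.67 at day 2 (adjusted p = 0.928 in edgeR), 0.088 ± 0.70 at day 14 against sham and 0.17 ± 0.71 between the days. In edgeR 0% of the 49 genes were called in each comparison, with 6, 2 and 2 at an unadjusted p under 0.05. Without the low-count filter as well, 10055 genes entered and no member was called. Col4a1 then stood at 2.48 ± 1.32 at day 2 (adjusted p = 0.544) and 2.97 ± 1.28 at day 14 against sham (adjusted p = 0.535 in edgeR, unadjusted 0.0203), where 0% of genes were called (314 and 316 at an unadjusted p under 0.05), and 0.00995% between the days. Sparc was then at -0.41 at day 14 against sham and -0.36 between the days, so its sign there depends on the filter.

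Other genes of matrix assembly were read in the same EC fits. Of 10 tested genes of collagen folding and crosslinking, 5 were higher at day 2 in young EC and none lower, beside 6.89% of all genes higher, with a list median of 0.78. They include Serpinh1, the collagen chaperone HSP47, at 156 ± 99.6 CPM in sham and 456 ± 90.9 CPM at day 2 (SD, n = 4 each), a log2 change of 1.57 ± 0.32. P4hb, a subunit of prolyl 4-hydroxylase, changed by 1.14 ± 0.28, Ppib by 0.88 ± 0.22 and Colgalt1 by 1.08 ± 0.30. From day 2 to day 14 Serpinh1 (-1.19) and P4hb (-1.10) fell, 2 of 10 beside 6.14% of all genes lower. In aged EC none of 11 tested genes of this list was called, where 0.606% of all genes were.

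Of 5 other basement membrane components tested, 1 was called at day 2, a count near the 13.3% of all genes called. It was Lamb2, a laminin β chain, at 189.7 ± 28.7 CPM in sham and 97.1 ± 29.3 CPM at day 2 (SD, n = 4 each), a log2 change of -0.90 ± 0.22. Of the 5 other basement membrane components 1 had a positive change, and their list median was -0.51, beside 0.00476 for all genes. None of 5 tested matrix receptors was called, with 1 change positive and a list median of -0.38. In the list of matrix breakdown, 3 of 7 tested genes were called, beside 13.3% of all genes. Timp1, a metalloproteinase inhibitor, had 0 counts in all young sham EC and 61.8 to 82.8 CPM at day 2, and Adamts9, a secreted protease, rose by 4.19 ± 0.74 on few sham counts. Timp3, an inhibitor held in the matrix, fell by 1.26 on the log2 scale. Both tested relatives of SPARC fell while Sparc rose, 2 of 2 beside 13.3% of all genes called: Sparcl1 by 1.08 (SE 0.23), from 2465 ± 358 to 1098 ± 295 CPM, and Spock2 by 1.69 (SE 0.29), and both were higher again at day 14 than at day 2, by 1.46 and 1.54. Of 6 genes tested in the angiogenic tip list, 1 was called at day 2, Mcam (2.43 ± 0.73), a count near the 13.3% of all genes. In aged EC Timp1 was higher (3.64 ± 0.69) and Sparcl1 lower (-2.01 ± 0.31) at day 2.

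Across the 12 young brain libraries the pattern of Col4a1 in EC was most like that of Col4a2, with a Pearson r of 0.95 of log2 CPM, rank 1 of 5832 genes. The next were Txnrd1, Orai1, Actb and Rps15. Sparc ranked 9 for Col4a1 with r of 0.87, Hspg2 ranked 117 and Nid1 ranked 287. Lama4, with r of 0.02, and Lamc1, with r of 0.06, ranked 3061 and 2879. For Sparc the most alike genes were Npm1, Nme1, Pdia6, Slc25a3 and Rplp1, with r from 0.94 to 0.95, and Col4a1 ranked 82. These correlations are over 12 libraries that share group and depth, and are given as a description.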

How the data were processed

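Drop-seq libraries of sorted brain cells were analysed, 18 in all, with 11 blood libraries used for levels only. The deposited tables hold expected counts (estimated counts) per gene and cell, fractional and unscaled as read from the files. The percent of a cell's counts on mitochondrial genes is the authors' deposited value per cell. The submitters' processing notes name the build mm10 and Seurat without a role, and the aligner and counter are not given in the sources used here. Cell types and subtypes are the authors' deposited annotation. All deposited cells were kept and no doublet caller was run.

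For each library the cells of a type were added up, and the sums were rounded to whole numbers, and tested with edgeR 4.0.16 (R 4.3.3; quasi-likelihood test, TMM scaling, filterByExpr, two-sided) where at least 20 cells were present. Adjusted p is Benjamini-Hochberg over all genes tested, called under 0.05. The standard error is the log2 fold change divided by the square root of F. DESeq2 1.42.0 was an alternative. Sums used Python 3.11.15 with pandas 2.3.3, and Poisson intervals SciPy 1.17.1. The scripts were tested on simulated data. The young libraries list 19704 genes and the aged ones 27514, and fits across ages used genes in both.

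The members and the gene lists were chosen with earlier results of these data known. Named with values are the 8 members and, of each other list, at most the 4 called genes of highest mean level. Comparisons that share sham libraries are given side by side. The mitochondrial class, the aged replicate block, the mural cell fits with no minimum of cells and the sham comparison across ages were added after seeing the data.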

Additional observations from a re-analysis of the deposited data

Results flagged for a closer look

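Of 24 groups of 4 libraries, 3 held a library far from the others, where chance gives about 1 in 20. Young sham replicate 3 was the lowest for Col4a2 in EC, at 134 CPM. Young day 14 replicate 3 was the highest for Nid1 in EC, at 55.9 CPM. Young sham replicate 1 was the highest for Sparc in microglia, at 3758 CPM.

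The day 2 change of Sparc differed between EC and microglia by 2.56 on the log2 scale, with an adjusted p of 0.00259 in edgeR's quasi-likelihood test of the difference itself. In the blood libraries, which enter no comparison, Nid1 stood at 13.7 CPM in cells coded Bc (95% Poisson interval 11.4 to 16.2) and Lamc1 at 7.13 CPM (5.53 to 9.05). Lamc1 stood at 2.15 CPM in cells coded Mo (1.09 to 3.8). Brain cells coded Bc held Nid1 at 25.7 CPM (10.0 to 54).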

How the results depend on the processing

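In young EC at day 2 against sham, 4 members were called. With 1 library left out the count ran from 2 to 4, with 2 without sham replicate 3. It was 1 in cells with at least 800 counts, and 0 in each of the subtypes EC1, EC3, EC4 and EC5 alone, where fewer cells enter. In the libraries above 5% mitochondrial Col4a1 and Sparc were called higher and Lama4 lower, at -1.12 (adjusted p = 0.0277 in edgeR). Col4a2 and Nid1 were not called there. The genes called fell from 778 to 45 in cells with at least 800 counts and to 13, 0, 4 and 0 in those subtypes, and ran from 320 to 991 with 1 library left out. For day 14 against day 2, 3 members were called, 1 to 4 with 1 library left out, 1 with at least 800 counts, and 0 in each subtype alone and in the libraries above 5% mitochondrial. The genes called fell from 654 to 404 without a low-count filter, 423 with at least 800 counts and 133 above 5% mitochondrial, and to 21, 0, 0 and 0 in EC1, EC3, EC4 and EC5 alone. With 1 library left out they ran from 324 to 523. In aged EC 1 member was called, and 0 to 1 with 1 library left out. The count was 2 with DESeq2, without the low-count filter, with only the compared groups, with the mitochondrial class as a term and above 5% mitochondrial. Col4a2 was the added member with DESeq2, at 1.93 (adjusted p = 0.011). The genes called rose from 40 to 108 with DESeq2, 135 without the filter, 66 with the mitochondrial class and 117 above 5% mitochondrial, and ran from 0 to 26 with 1 library left out. Without the filter 124 genes, and no member, were called for the difference between ages.

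Replicate numbers were not taken to pair the libraries. Deviations of same-numbered EC libraries of the same mitochondrial class correlated from -0.105 to 0.456 with a median of 0.137, against a median of 0.0541 for other numbers in the same class. Of different classes, same numbers had a median of -0.0843 and other numbers -0.049. With the replicate number as a block, young day 2 changes were 1.58 for Col4a1, 1.58 for Col4a2, 1.84 for Nid1 and 1.49 for Sparc, with 4 members called. For day 14 against day 2 the block gave 4 members called, Nid1 joining at -1.21 (adjusted p = 0.044). With the replicate label as a block, added after seeing the data, aged EC had 0 members and 7 genes called. The difference between ages had 0. The EC minus microglia fit already holds each library as a block.

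In microglia Sparc changed by -0.59 at day 2 in cells with at least 800 counts. From day 2 to day 14 it changed by 0.97 in such cells and by 0.91 without day 2 replicate 3, with a range of 0.91 to 1.56 over libraries left out. The genes called in microglia ran from 791 to 2573 for day 14 against sham (1544) and from 276 to 735 for day 14 against day 2 (703) with 1 library left out, and reached 3425 and 1157 with library size alone. For day 14 against sham they were 874, 842 and 791 without sham replicates 2, 3 and 4, 894 without day 14 replicate 1 and 2573 without day 14 replicate 4. For day 14 against day 2 they were 379 and 276 without day 2 replicates 1 and 4, and 426 and 440 without day 14 replicates 1 and 4. For day 2 against sham they fell from 3182 to 2094 without day 2 replicate 4. With library size alone the day 14 change was -0.021, and the EC minus microglia difference at day 14 was 0.27.

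Changes of sign fell on values that passed no test in these fits. With at least 800 counts they were 0.49 for Lama4 at day 2, -0.029, -0.11 and 0.57 for Col4a1, Col4a2 and Lama4 at day 14 against sham, and 0.077 for Lama4 between days. At day 14 against sham Col4a2 was also -0.35 and Sparc -0.10 in EC5 alone. Col4a2 was -0.071 with the mitochondrial class as a term and -0.32 above 5% mitochondrial. Lamc1 was 0.23 and Hspg2 0.081 without EC holding a mural or fibroblast count. Lama4 between days was 0.075 with library size, 0.0027 with the replicate block and 0.52 above 5% mitochondrial. The age difference of Col4a1 was 0.23 above 5% mitochondrial. Between shams Col4a2 was 0.080 and Nid1 0.031 with the mitochondrial class. With 1 library left out, ranges crossing 0 at day 14 against sham were -0.47 to 0.11 for Lamc1 and -1.49 to 0.93 for Hspg2. Lama4 between days ran from -0.24 to 0.20, and Hspg2 in aged EC from -0.18 to 0.60, with -0.15 without the male sham library. The age difference ran from -0.041 to 0.75 for Col4a2, with -0.014 without the male sham library, and -0.52 to 0.79 for Nid1, with -0.22 without young sham replicate 2 and 0.48 without young day 2 replicate 1. Between shams Col4a2 ran from -0.35 to 0.11 and Nid1 from -0.67 to 0.65, with 0.37 and -0.30 without young sham replicates 2 and 4. The cause was not tested. Aged EC with at least 800 counts could not be fitted. Mural cell comparisons were run only with no minimum of cells, with and without the low-count filter, and 0 members were called in each. Without the filter Sparc turned to -0.41 at day 14 against sham and -0.36 between days. Lamb1, Nid1, Lamc1 and Hspg2, and Lama4 in aged sham EC, rest on few counts, and depth limits what they can show.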
